A study of Homo sapiens with 2 samples.

Results

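The 10 genes described here give rise to small nucleolar RNAs (snoRNAs) from their introns, and their spliced transcripts have been described as substrates of nonsense-mediated decay (NMD): SNHG1, SNHG3, SNHG5, SNHG6, SNHG7, SNHG8, SNHG12, SNHG15, SNHG16 and GAS5. They were taken by symbol, after removal of the version from each Ensembl gene ID, and each of the 10 matched 1 row of the 57820 gene IDs in both libraries. All 10 passed the limit of a mean of 1 CPM (read counts scaled to library size), as did 12747 genes in all. RNA came from HEK293T cells, a line derived from human embryonic kidney that carries the SV40 large T antigen, in 1 library from cells given SRα siRNA and 1 from cells given control siRNA. SRPRA encodes SRα, a subunit of the membrane receptor that receives ribosomes bound by the signal recognition particle. Libraries were made with a stranded kit that selects polyadenylated RNA. The labels give no duration of depletion and no siRNA sequence, and both groups share the cell line and were given an siRNA. With 1 library in a group there was no replicate check and no test, so each interval below is a 95% interval of counting error only. Neither library came from cells in which NMD was blocked, so that property is background here and could not be checked. In bulk RNA, fewer expressing cells and less RNA per cell cannot be told apart.

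A snoRNA host gene is transcribed and spliced like a protein-coding gene, and the snoRNA is trimmed out of the removed intron and goes to the nucleolus, where it guides chemical modification of ribosomal RNA or takes part in its cleavage. The joined exons carry no long reading frame. They nevertheless reach the cytoplasm and are bound by ribosomes, and many of them begin with a 5′ terminal oligopyrimidine (5′ TOP) tract, the start shared by messages of ribosomal proteins. NMD is a translation-dependent pathway in which a ribosome that stops well upstream of an exon junction leads, through UPF1 and its partners, to decay of the RNA, so spliced host RNAs accumulate when translation or NMD is blocked. The design text also names ribosome profiling and messages bound by the cap-binding proteins CBP80 and eIF4E, which were not analysed here. The comparison of the siRNA libraries asks how the steady-state level of these RNAs differed when SRα was depleted.

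The reading frames nearest the start of these RNAs are short. In 1 GENCODE 29 transcript per gene, the one linked to the RefSeq transcript that is listed first, the frame that opens at the first AUG held 5 codons before its stop in SNHG1, 18 in SNHG15, 19 in SNHG6, 20 in SNHG16, 23 in SNHG3, 35 in SNHG5, 49 in SNHG12, 50 in GAS5, 52 in SNHG8 and 64 in SNHG7. The frames of 5 genes are shown, those with the highest and lowest ratios between the libraries and the short frame of SNHG16, with the frame from ATG to stop in capitals and up to 15 flanking bases on each side in lower case.
SNHG1: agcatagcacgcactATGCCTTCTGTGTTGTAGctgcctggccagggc
SNHG5: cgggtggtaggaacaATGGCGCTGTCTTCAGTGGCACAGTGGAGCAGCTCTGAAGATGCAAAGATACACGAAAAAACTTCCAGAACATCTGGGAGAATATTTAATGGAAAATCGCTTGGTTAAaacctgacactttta
SNHG16: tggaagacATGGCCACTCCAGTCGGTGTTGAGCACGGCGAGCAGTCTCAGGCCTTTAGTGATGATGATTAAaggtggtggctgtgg
SNHG8: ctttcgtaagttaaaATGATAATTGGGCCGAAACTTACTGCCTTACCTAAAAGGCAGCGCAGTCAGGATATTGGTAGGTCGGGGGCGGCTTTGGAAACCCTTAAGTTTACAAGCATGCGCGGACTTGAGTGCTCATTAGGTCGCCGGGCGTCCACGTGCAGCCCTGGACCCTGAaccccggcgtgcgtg
SNHG15: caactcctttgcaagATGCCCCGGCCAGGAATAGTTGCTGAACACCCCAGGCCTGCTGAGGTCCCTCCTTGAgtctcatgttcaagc
In SNHG1, whose transcript has 10 exons, all 9 junctions lay more than 50 bases downstream of this stop, and the last of them lay 671 bases downstream. The number of such junctions was 5 in GAS5 (12 exons), 4 in SNHG12, 3 each in SNHG6 and SNHG16, 2 each in SNHG5 and SNHG8 and 1 in SNHG15. It was 0 in the transcripts used for SNHG3 and SNHG7, which have 3 and 2 exons. Thus 8 of 10 hosts had a junction in this position, a share of 80.0%, against 78.8% of 3582 other spliced lncRNA genes treated alike, so this layout was about as frequent in other lncRNAs. The match describes sequence and does not show that the frame is translated.

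The starts of these genes were read from RefSeq (GRCh38.p14), which held 8 of the 10, all but SNHG6 and SNHG15. The search looked for at least 5 pyrimidines in a row counted from a C within 10 bases of the start, on the transcript strand. Further pyrimidines could precede that C, and did in SNHG5, SNHG7 and SNHG16. Such a run was present in 5 of 8 (SNHG5, SNHG7, SNHG8, SNHG12 and SNHG16). The same search found one in 33.5% of 35116 gene starts and in 65 of 78 starts of ribosomal protein genes (83.3%). The letters TATAAA or TATATA, which can overlap each other, began 20 to 40 bases before the start on the transcript strand in 3 of 8 (SNHG5, SNHG7 and SNHG12), against 3.12% of all starts. The window from 40 bases before the start to 25 bases from it is printed for 5 genes, with both motifs in capitals where the search found them.
SNHG1, chr11:62855861-62855925, minus strand: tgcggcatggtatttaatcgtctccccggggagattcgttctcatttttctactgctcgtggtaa
SNHG5, chr6:85678709-85678773, minus strand: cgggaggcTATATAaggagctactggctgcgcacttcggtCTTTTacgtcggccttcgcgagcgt
SNHG12, chr1:28581849-28581913, minus strand: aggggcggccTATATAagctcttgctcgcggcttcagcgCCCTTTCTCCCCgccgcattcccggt
SNHG8, chr4:118278722-118278786, plus strand: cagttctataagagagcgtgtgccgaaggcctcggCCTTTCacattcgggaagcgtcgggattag
SNHG16, chr17:76557724-76557788, plus strand: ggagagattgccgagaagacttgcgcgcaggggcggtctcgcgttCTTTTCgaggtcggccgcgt
SNHG1 has the bases ctc at the listed start, followed by an a and a further pyrimidine stretch, tttttct. In both, fewer than 5 pyrimidines ran on from any C, so no run met the rule used. A search of this kind depends on where the annotation places the start.

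Gene reads numbered 3896721 in the SRα siRNA library and 2445200 in the control siRNA library. The message of SRPRA, the siRNA's target, had 449 reads (117 CPM) in the SRα siRNA library and 507 reads (205 CPM) in the control siRNA library, a ratio of 0.570. Of 11 genes listed as typical of HEK293T cells, 9 had a row and all 9 had reads, with summed levels of 980.3 and 876 CPM, and 7 of them were higher in the SRα siRNA library. The neurofilament gene NEFM had a log2 ratio of 0.32 (0.10 to 0.53) and the intermediate filament gene VIM 0.31 (0.18 to 0.44), and whether this bears on the host genes was not tested. Fibroblast, leukocyte and differentiated epithelium markers summed to 17.7, 4.16 and 7.80 CPM in the SRα siRNA library and to 18.2, 3.23 and 8.08 CPM in the control siRNA library. COL1A2, PTPRC, CD3E, CD14, KRT5, KRT14, KRT20, MUC1 and CDH16 were at 0 in both.

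Of the 10 host RNAs, SNHG1 and SNHG5 were about 1.2-fold higher in the SRα siRNA library, and the other 8 lay between 0.886 and 1.07 times their control level with intervals that include no difference. None reached 2-fold in either direction. In ratio the hosts ran from 1.23 (SNHG1) to 0.886 (SNHG15), with 6 higher and 4 lower and a median log2 ratio of 0.03, against 0.01 over all 12747 genes.

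SNHG1, the host of a group of C/D box snoRNAs, was by far the most-read of the 10. It had 2887 reads in the SRα siRNA library and 1511 in the control siRNA library, or 750.3 and 610.2 CPM. The SRα siRNA library was the higher, by a log2 ratio of 0.30 (0.21 to 0.39) or 1.23-fold (1.15 to 1.31). Of the 296 genes that averaged 500 CPM or more, 8 had a higher ratio, a level chosen with the values known. SNHG5, which hosts SNORD50A and SNORD50B, had 558 and 294 reads, or 145 CPM with SRα siRNA and 119 CPM with control siRNA. Its ratio was close to that of SNHG1, 1.22-fold with a log2 value of 0.29, but its interval of 0.08 to 0.50 was wider because it rests on fewer reads. All 10 hosts lie among the 6807 genes that averaged 20 CPM or more, and of these 93.9% had a lower ratio than SNHG1 and 93.3% a lower ratio than SNHG5.

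These were the 2 of 10 hosts at least 1.2-fold higher, against 17.5% of all measured genes and 8.40% of genes of at least 20 CPM. None was at least 1.2-fold lower, against 18.4% of measured genes and 6.89% of genes of at least 20 CPM. For a 2-fold difference the counts were 0 higher and 0 lower, against 2.15% and 2.57% of measured genes. The counting interval lay above 0 for the same 2 hosts and below 0 for none, against 8.37% and 4.30% of genes of at least 20 CPM. Both hosts lie near the 1.2-fold line, and with scaling to total gene reads 0 of 10 passed it.

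**Figure D1:**
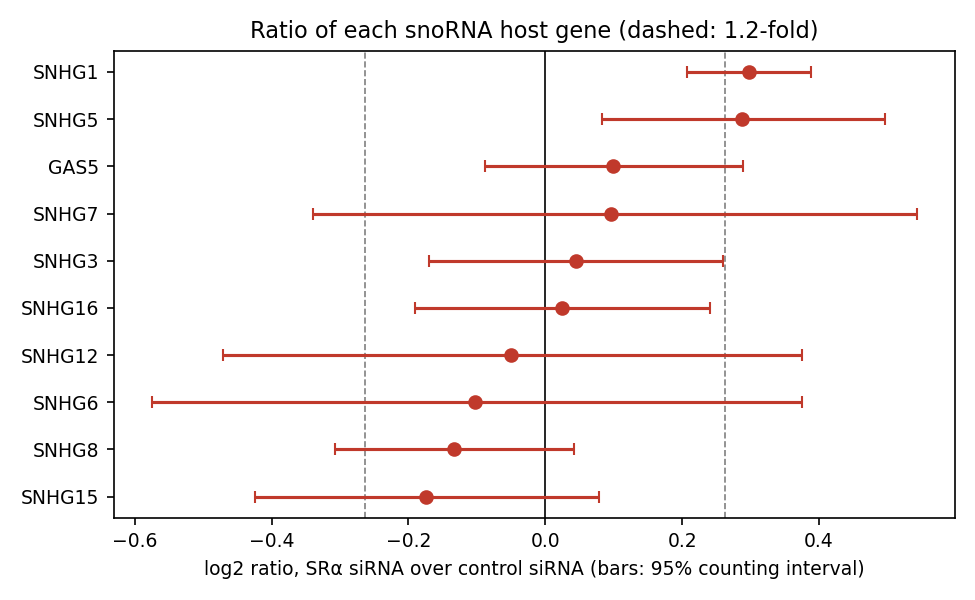
The log2 ratio of SRα siRNA over control siRNA is plotted for each of the 10 hosts, with bars for the 95% counting interval and dashed lines at 1.2-fold. SNHG1 and SNHG5 have intervals above 0, and the intervals of the other 8 span 0.

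GAS5, an RNA first found in growth-arrested cells and the host of a large group of C/D box snoRNAs, had 621 and 373 reads, or 161 CPM in the SRα siRNA library and 151 CPM in the control siRNA library. Its log2 ratio was 0.10 (-0.09 to 0.29). SNHG7, host of SNORA17A and SNORA17B, was read far less, with 118 and 71 reads or 30.7 CPM with SRα siRNA and 28.7 CPM with control siRNA. Its log2 ratio of 0.10 equals that of GAS5, but the interval of -0.34 to 0.54 would hold a difference of nearly 1.46-fold upward. No difference was detectable for either gene at this depth.

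SNHG3 and SNHG16 were nearly level. SNHG3, the host of the U17 snoRNAs SNORA73A and SNORA73B that take part in ribosomal RNA cleavage, had 468 and 292 reads, or 122 CPM with SRα siRNA and 118 CPM with control siRNA, and a log2 ratio of 0.04 (-0.17 to 0.26). SNHG16, the host of SNORD1A, SNORD1B and SNORD1C, had 460 and 291 reads, or 119.6 and 118 CPM, and a log2 ratio of 0.02 (-0.19 to 0.24). The sign for SNHG16 depends on the scaling, since its log2 ratio was -0.01 with scaling to total gene reads and also with totals that leave out mitochondrially encoded and the 10 most-read genes.

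The 4 hosts that were lower in the SRα siRNA library were SNHG12, SNHG6, SNHG8 and SNHG15. SNHG12, which hosts H/ACA box snoRNAs and SNORD99, had 120 and 80 reads, or 31.2 CPM with SRα siRNA and 32.3 CPM with control siRNA, and a log2 ratio of -0.05 (-0.47 to 0.38). SNHG6, the host of SNORD87, was the least read, with 94 and 65 reads or 24.4 and 26.2 CPM, and had a log2 ratio of -0.10 (-0.58 to 0.38). Both intervals are too wide to tell a difference of 1.2-fold in either direction from none. SNHG8, the host of SNORA24, had 656 and 463 reads, or 170.5 CPM with SRα siRNA and 187 CPM with control siRNA. Its log2 ratio was -0.13 (-0.31 to 0.04), a ratio of 0.912. SNHG15, the host of SNORA9, had the lowest ratio, 0.886 with a log2 value of -0.17 (-0.42 to 0.08), from 314 and 228 reads or 81.6 and 92.1 CPM. For both, the interval just includes 0.

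In the order of ratios, every pair of neighbouring hosts had overlapping intervals. Of the 45 pairs of hosts, 4 had intervals that do not meet: SNHG1 and SNHG5 each lay above SNHG8 and above SNHG15. The differences between those log2 ratios were 0.43 for SNHG1 over SNHG8, 0.47 for SNHG1 over SNHG15, 0.42 for SNHG5 over SNHG8 and 0.46 for SNHG5 over SNHG15. SNHG5 cleared SNHG15 narrowly, with a lower bound of 0.082 against an upper bound of 0.078. These pairs were picked from 45 after their values were seen, the intervals cover counting error in 1 library a group, and pairs of other genes were not counted.

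**Figure D2:**
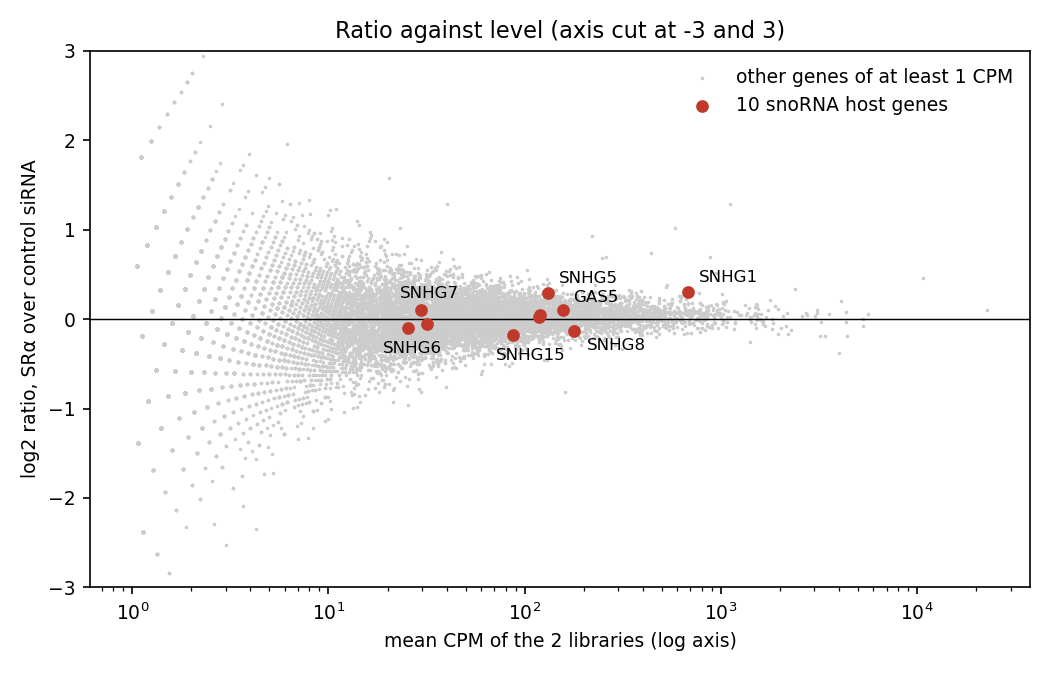
Each gene of at least 1 CPM is placed by its mean CPM (log axis) and its log2 ratio of SRα siRNA over control siRNA, with the 10 hosts in red. The spread of all genes narrows with level, and SNHG1, at 0.30, stands near the upper edge of genes as well read.

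Summed over the 10 genes, the hosts took 0.162% (exact binomial interval 0.158 to 0.166) of gene reads in the SRα siRNA library and 0.150% (0.145 to 0.155) in the control siRNA library. The summed log2 ratio was 0.14 (0.08 to 0.20), from 6296 and 3668 reads. This sum rests on SNHG1, which held 45.9% of host reads with SRα siRNA and 41.2% with control siRNA. Without SNHG1 the other 9 summed to 886 CPM in the SRα siRNA library and 871 CPM in the control siRNA library, a log2 ratio of 0.02 (-0.05 to 0.10).

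Levels of different genes were compared per kilobase of exon, using all exons of the gene in GENCODE 29. SNHG1 at 199.8 and SNHG8 at 185 CPM per kilobase were the most abundant hosts in the SRα siRNA library. In the control siRNA library SNHG8 stood at 203 and SNHG1 at 162, so their order was reversed, and in the control siRNA library their intervals (185 to 222 and 154 to 171) did not meet. In the SRα siRNA library the interval of SNHG1 (193 to 207) overlapped that of SNHG8 (171 to 199). SNHG5 and GAS5 followed with 51.7 and 44.4 CPM per kilobase with SRα siRNA, and 42.3 and 41.5 with control siRNA. SNHG3 came next, at 29.8 (27.1 to 32.6) with SRα siRNA and 28.8 (25.6 to 32.4) with control siRNA. SNHG15, SNHG16 and SNHG6 had 22.4, 22.3 and 19.6 in the SRα siRNA library and 25.2, 21.9 and 21.1 in the control siRNA library, and their intervals overlapped in both. SNHG12 and SNHG7 were lowest by this measure, at 7.31 and 7.06 with SRα siRNA and 7.57 and 6.60 with control siRNA, and did not differ beyond counting error.

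The order depends on which exons are counted, because retained-intron forms lengthen some genes. Per kilobase of the single spliced transcript, SNHG1 led in both libraries with 505 CPM per kilobase in the SRα siRNA library and 410.4 in the control siRNA library. SNHG5 had 337 and 276 by that measure, GAS5 255 and 238, and SNHG8 254 and 278. At the low end SNHG7 had 14.2 and 13.3, SNHG6 38.3 and 41.1, and SNHG12 45.7 and 47.4. SNHG12 thus stood well above SNHG7 per kilobase of the spliced transcript.

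**Figure D3:**
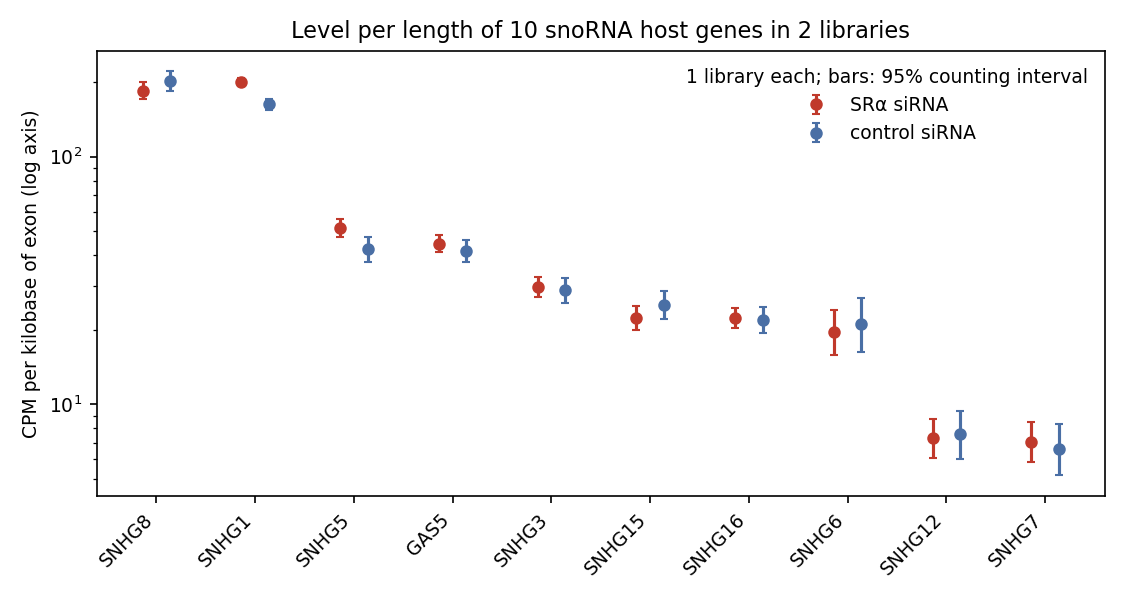
CPM per kilobase of exon is shown on a log axis for the 10 hosts in the SRα siRNA library and the control siRNA library, with bars for the 95% counting interval, ordered by the control siRNA level. SNHG1 and SNHG8 stand well above the others, and SNHG12 and SNHG7 are lowest.

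Several hosts share sequence with other genes. In GENCODE 29, 30.6% of the exonic bases of SNHG16, 29.3% of SNHG6 and 25.2% of SNHG7 are also exonic in a gene on the opposite strand (AC015802.6, MCMDC2 and FAM69B), and 5.92% of SNHG3 is shared on the same strand with RCC1. Every host but GAS5 also shares exonic bases on the same strand with a snoRNA gene, among them 14.2% of SNHG8 with SNORA24. The effect of this on the levels was not tested. Use of strand in the counting is not given in the sources used here. Whether reads of these pairs were separated, set aside as ambiguous or mixed is therefore not known. Ambiguous reads made up 4.58% (SRα siRNA) and 4.67% (control siRNA) of uniquely aligned entries. Exact 50-base stretches found in a transcript of another gene made up 8.08% of those in SNHG3 and 0 in GAS5, and the value for SNHG1 was 5.47%, mostly from the snoRNAs in its own introns. Ratios of the 2 libraries ran lower with higher GC content across the 6737 genes of at least 20 CPM with a known value (Spearman -0.23, Pearson -0.22, across genes, which share both libraries and are not replicates). With genes put into 10 equal bins by GC, the median log2 ratio was 0.07 in the bin of lowest GC and -0.06 in that of highest GC. SNHG1 (43.1% GC in its longest transcript) lay in a bin with a median of 0.06, SNHG5 (47.1%) in a bin at 0.03, and SNHG8 (49.3%) and SNHG15 (49.7%) in a bin at 0.01. The part of GC in the ratios of the hosts was not tested.

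Few of the snoRNAs could be followed. Of 36 snoRNAs listed for the introns of the 10 hosts, 10 had a row that could be matched by symbol, and the reads of the others were not analysed here. Of those 10, 5 had a read in either library and 2 had at least 20 reads over both. SNORA73B, from SNHG3, had 714 and 464 reads, or 186 CPM with SRα siRNA and 187 CPM with control siRNA. Its log2 ratio was -0.01 (-0.18 to 0.16), and this interval overlaps that of its host. SNORD1B, from SNHG16, had 76 and 31 reads, or 19.8 CPM with SRα siRNA and 12.5 CPM with control siRNA, a log2 ratio of 0.65 (0.04 to 1.31) whose interval overlaps that of SNHG16. A kit that selects polyadenylated RNA is not made to capture mature snoRNAs, and whether these reads come from the snoRNA or from unspliced host RNA was not determined.

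Other snoRNA host lncRNAs had log2 ratios from -0.47 to 0.59. Of 20 listed, 19 had a row and 13 were measured, of which 5 were higher and 8 lower, with a median log2 ratio of -0.04. At 1.2-fold, 2 were higher and 3 lower, against 17.5% and 18.4% of all measured genes. Counting intervals lay above 0 for 1 of the 13 and below 0 for 2. Of genes of at least 20 CPM, 8.37% had intervals above 0 and 4.30% below. SNHG20, the most-read of them, had 433 CPM with SRα siRNA and 384 CPM with control siRNA and a log2 ratio of 0.17 (0.06 to 0.29). SNHG29 had 265 and 272 CPM (-0.04, -0.18 to 0.11), and ZFAS1 had 53.3 and 46.4 CPM (0.20, -0.14 to 0.54).

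Among the rest of these host lncRNAs with a mean of at least 5 CPM, SNHG11 had a log2 ratio of 0.31 (-0.60 to 1.29) and SNHG17 0.14 (-0.28 to 0.57). SNHG21 had -0.03 (-0.83 to 0.80), from 35 and 23 reads, and SNHG19 had -0.04 (-0.30 to 0.23). DANCR had -0.13 (-0.41 to 0.15), SNHG9 -0.22 (-0.70 to 0.26) and EPB41L4A-AS1 -0.47 (-1.18 to 0.22). SNHG30 and SNHG25 had intervals below 0: SNHG30 had 47.0 CPM with SRα siRNA and 60.6 CPM with control siRNA (-0.36, -0.69 to -0.04), and SNHG25 had 53.3 and 71.1 CPM (-0.41, -0.71 to -0.12).

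The lists of genes that make or destroy host RNAs had medians of 0.03 to 0.08, against 0.01 over all measured genes and 0.02 over genes of at least 20 CPM, and single genes in them lay further out. Of 14 measured NMD factors 9 were higher and 5 lower, with a median of 0.03. At least 1.2-fold higher were 2, SMG1 and NBAS, against 17.5% of all measured genes and 8.40% of genes of at least 20 CPM. Of the 14, 2 had counting intervals above 0, against 8.37% of genes of at least 20 CPM. SMG1, the kinase that phosphorylates UPF1, had 82.1 CPM with SRα siRNA and 67.0 CPM with control siRNA, a log2 ratio of 0.29 (0.02 to 0.57). NBAS had 0.28 (-0.0021 to 0.57). UPF3A, a partner of UPF2, had -0.05 (-0.91 to 0.84) and SMG9, a partner of SMG1, -0.15 (-0.55 to 0.25).

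The exon junction complex, which marks junctions for NMD, had 7 of 9 measured members higher and 2 lower, a median of 0.08 and 0 members past 1.2-fold, between CASC3 at 0.21 (-0.04 to 0.46) with MAGOH at 0.14, and RNPS1 at -0.02 with ACIN1 at -0.08 (-0.23 to 0.07). Protein-coding genes with NMD-sensitive messages had 16 of 27 higher and 11 lower, and a median of 0.04, in a range of -1.22 to 1.07. Of these 27, 4 were past 1.2-fold upward and 6 downward, against 17.5% and 18.4% of all measured genes. Counting intervals lay above 0 for 2 of the 27 and below 0 for 2. Of genes of at least 20 CPM, 8.37% had intervals above 0 and 4.30% below. Among those of at least 5 CPM, the highest were GADD45A at 0.34 (-0.21 to 0.92) and TRIB3, a pseudokinase of the stress response, at 0.31 (-0.26 to 0.90), and the lowest were UPP1 at -0.37 (-1.19 to 0.45) and GADD45B at -0.57. All of the intervals of those 4 genes include 0.

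The proteins that package snoRNAs and their assembly factors had 12 of 18 measured members higher, 6 lower and a median of 0.05. Counting intervals lay above 0 for 5 of the 18, against 8.37% of genes of at least 20 CPM. SHQ1, an assembly factor of H/ACA particles, had 103 CPM with SRα siRNA and 84.8 CPM with control siRNA (0.28, 0.03 to 0.52), and RPAP3, a co-chaperone in C/D assembly, had 124 and 104 CPM (0.26, 0.04 to 0.48). NOP56, a core C/D protein, had -0.08 (-0.21 to 0.05) and the assembly factor PIH1D1 -0.22 (-0.53 to 0.09).

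Most genes in both lists of 5′ TOP messages had ratios above 0, and their medians lay near 0. Of 77 measured ribosomal protein genes, 53 were higher and 24 lower with SRα siRNA. Their median log2 ratio was 0.06, and 8 passed 1.2-fold upward and 2 downward. The shares were 17.5% and 18.4% of all measured genes, and 8.40% and 6.89% of genes of at least 20 CPM. Counting intervals lay above 0 for 19 of the 77 and below 0 for 2. Of genes of at least 20 CPM, 8.37% had intervals above 0 and 4.30% below. Over all measured genes 6554 were higher and 6193 lower, and of genes of at least 20 CPM 3752 were higher and 3055 lower. With scaling to total gene reads the median of the ribosomal protein genes was 0.03 and that of all measured genes -0.03. RPL21 had 0.57 (0.05 to 1.11), against -0.48 (-1.17 to 0.21) for RPS26 and -0.51 (-1.01 to -0.01) for RPS27A. These 3 had 40 to 104 reads in the SRα siRNA library, and many ribosomal protein genes have near-identical copies whose reads were not counted. Of 17 other measured 5′ TOP genes 16 were higher and 1 lower, with a median of 0.09, led by EEF1A1 at 0.68 (0.52 to 0.84) and EIF4B at 0.68 (0.21 to 1.17). Counting intervals lay above 0 for 7 of the 17 and below 0 for 0. Neither list was matched by level to the genes of at least 20 CPM. EEF1D had 0.04 (-0.12 to 0.19) and EEF1B2 -0.09 (-0.26 to 0.09). EEF1A1 likewise has many near-identical copies.

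Protein-coding genes that carry snoRNAs in their introns had 39 of 50 higher and 11 lower, with a median of 0.08. Past 1.2-fold were 3 upward and 0 downward, against 17.5% and 18.4% of all measured genes and 8.40% and 6.89% of genes of at least 20 CPM. Counting intervals lay above 0 for 16 of the 50 and below 0 for 0. Of genes of at least 20 CPM, 8.37% had intervals above 0 and 4.30% below. Many of these protein-coding hosts are ribosomal protein genes, so this list shares members with the 5′ TOP list. It also shares EIF4A2 with the list of protein-coding genes with NMD-sensitive messages. RPL21 had the highest ratio among those of at least 5 CPM and PPAN the next, at 0.47 (-0.56 to 1.60), and RPS2 at -0.13 (-0.41 to 0.15) and RPL10 at -0.19 (-0.50 to 0.12) the lowest. The median of the 10 hosts, 0.03, was below those of the 5′ TOP and protein-coding host lists and above that of the other host lncRNAs.

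**Figure D4:**
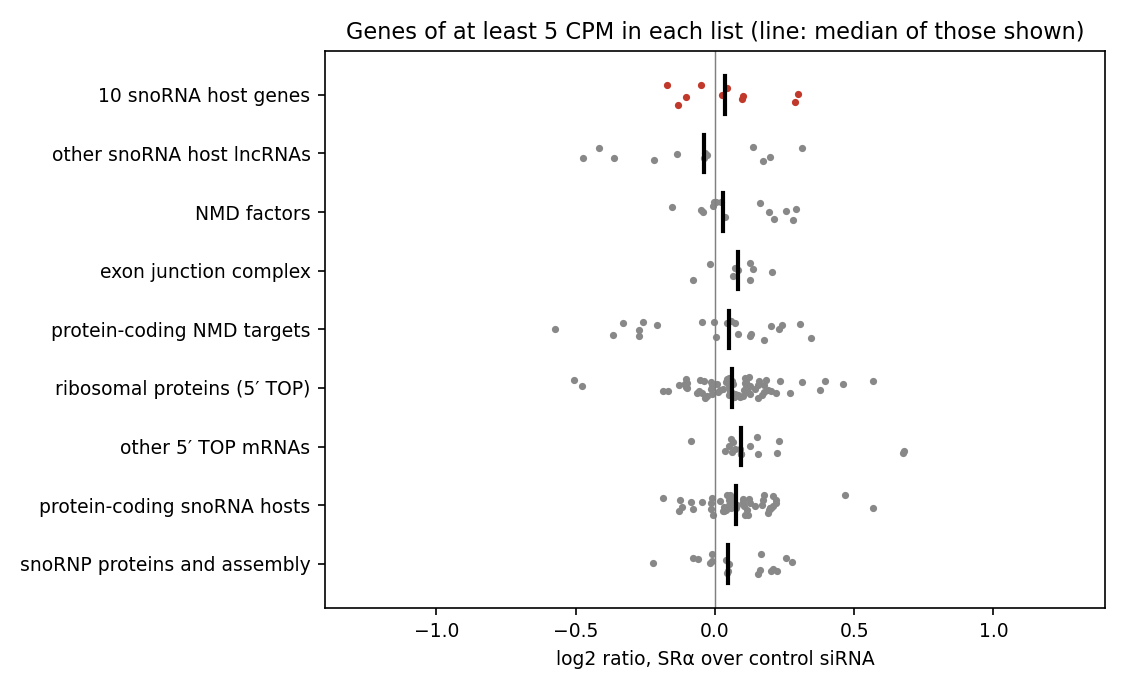
The log2 ratio of SRα siRNA over control siRNA is shown for every gene of at least 5 CPM in each list, with a line at the median of the genes shown. The 10 hosts, in red, lie between -0.17 and 0.30 with a median of 0.03, inside the range that all listed genes span.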

How the data were processed

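The deposited files hold raw read counts by Ensembl gene ID for 2 libraries. The labels' processing notes name cutadapt, STAR 2.5.2b and hg19. Not given in the sources used here were the counting program, its strand setting and the annotation. Alignments that were not unique, 76.5% (SRα siRNA) and 79.6% (control siRNA) of entries, were not assigned to genes, and lines that name no gene were left out of library sizes.

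Libraries were scaled by edgeR 4.0.16 TMM factors (R 4.3.3). Log2 ratios carry a prior count of 0.5 scaled to depth. Their 95% intervals are exact binomial (Clopper-Pearson) intervals of both counts given their sum, and those of levels are exact Poisson intervals. Reads without molecular identifiers are not independent molecules, so intervals describe counting alone. A gene was called measured at a mean of 1 CPM or more. No test was possible with 1 library in a group. The procedure was run on simulated Poisson counts without variation between libraries, as the interval assumes. That run checks the calculation only and does not cover variation between replicates. Alternatives were DESeq2 1.42.0 size factors, other factors and totals, other filters and a prior count of 2.

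Symbols were matched for 52338 of 57820 IDs, and GENCODE 29 and RefSeq gave lengths and sequences by gene. Python 3.11.15 and scipy 1.17.1 were used. The 10 genes and all lists were chosen with earlier results of these data known. Named are, from each list, the 2 highest and 2 lowest ratios at a mean of 5 CPM or more, other snoRNA host lncRNAs of at least 5 CPM, and snoRNAs with at least 20 reads in all. A gene that this rule names is not reported here.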

Additional observations from a re-analysis of the deposited data

How the results depend on the processing

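Of the 10 host genes, 9 kept their direction in each alternative of scaling, filter and prior count. SNHG16 did not: its log2 ratio was -0.01 both with total gene reads and with totals that leave out mitochondrially encoded and the 10 most-read genes, and 5 hosts were then higher, against 6. Log2 ratios ranged from 0.26 to 0.30 for SNHG1, 0.25 to 0.29 for SNHG5, -0.17 to -0.13 for SNHG8 and -0.21 to -0.17 for SNHG15. The number of hosts at least 1.2-fold higher was 0 with total gene reads and 1 with those reduced totals, against 2. The reduced totals also set the share of reads in the hosts to 0.176% (SRα siRNA) and 0.163% (control siRNA), because they are smaller. In 2 alternatives chosen after seeing the data, leaving SNHG1 out of the sum gave a log2 ratio of 0.024, and a minimum of 20 CPM left 8.40% of genes at least 1.2-fold higher and 6.89% lower. Of 237 alternative values 230 lay within the counting interval, or 1.5 times the count, of the value reported. For the median of a list, the interval used was that of the single gene nearest the median. It was wide, -0.46 to 0.48 for all measured genes, and is not an interval of the median. The other filters could not change the ratio of a host, since all 10 pass them. The count of 230 is therefore a weak check of stability. Depth limits SNHG6, SNHG7 and SNHG12, with 65 to 120 reads, to differences well above 1.2-fold. No paired analysis was possible because each group has 1 library.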
